A study of Drosophila melanogaster with 26 samples.

Results

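The comparison described here is that of female Kc cells treated with *jil-1* RNAi with Kc cells treated with control RNAi, 4 samples against 4 of the 26 RNA-seq samples of the series. The samples were chosen by their labels, and the changes were followed across all genes on the strand of the gene. Kc cells (Kc167) are a line of embryonic, blood cell-like origin. They were grown in Schneider's medium, given double-stranded RNA at 10 µg/mL and treated again after 3 days for 4 more days. The RNA was directed against *jil-1* or, in the controls, against *gst* or *gfp*, and neither the RNA used among those listed nor the kit for ribosomal RNA removal is given per sample. Strand-specific libraries depleted of ribosomal RNA were made in 2 batches. Replicates 1 and 2 of both groups are batch 1, and replicates 3 and 4 are batch 2. The labels do not say whether replicates are separate cultures, so p-values measure the spread between these samples.

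JIL-1 is a kinase of the interphase nucleus that phosphorylates histone H3 at serine 10. It sits with its partner JASPer on the bodies of active genes marked by methylated H3K36, keeps heterochromatin marks such as H3K9me2 from spreading, and in males is concentrated on the X. Kc cells are female and lack the male dosage compensation complex, so the comparison asks what loss of the kinase does where the X chromosome is not compensated in this way. Since whole cultures were measured, fewer cells with a transcript and less of it per cell cannot be told apart.

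The identity of the libraries was checked with the targeted gene. Antisense reads on *JIL-1* were between 61.9 and 174 per 1000000 reads on genes (CPM) in the 4 *jil-1* RNAi libraries and at most 5.39 CPM in controls. Reads on the gene's own strand ranged from 37.2 to 358 CPM upon RNAi and from 45.1 to 55.1 CPM in controls. Reads of the transcript and of the double-stranded RNA cannot be told apart, so *JIL-1* was left out and the degree of knockdown was not measured. Libraries had between 2513223 and 17419281 reads on genes, and *jil-1* RNAi replicates 4 (2513223) and 1 (4315726) were the shallowest. The share of aligned reads outside genes was higher upon RNAi within both batches. It was 7.78% to 8.14% against 6.77% to 7.26% in batch 1 and 6.97% to 7.20% against 6.10% to 6.44% in batch 2. The share of reads counted as unmapped was higher too. It was 58.2% to 58.4% against 50.4% to 54.2% in batch 1, and 52.5% to 52.7% against 45.3% to 46.3% in batch 2. The part of these shares in the results was not tested. The blood cell marker *Hml* was high, between 1883 and 2351 CPM in controls. The male-specific *lncRNA:roX2* was at most 1.95 CPM in control Kc cells, against 705 to 783 CPM in control S2 cells, which are male.

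The *jil-1* RNAi library of replicate 1 stood apart. Of 33 embryonic patterning genes, a list made after this was seen, 31 were highest in it among the 8 libraries. The Hox gene *abd-A* had 18 reads in this library and 2 in the other 7 together. The segmentation gene *gsb* had 10 reads against 2, and *lncRNA:roX1* was at 34.8 CPM there and between 1.03 and 3.14 CPM elsewhere. Of the 33 genes, 4 had reads in all 8 libraries and were tested, and edgeR and DESeq2 called none of them, with 3 higher at an unadjusted p below 0.05. The rule for named genes picked 84 called genes. Leaving out 1 of the other samples ended the calls of between 20 and 50 of them, 49 for *jil-1* RNAi replicate 2. Leaving out *jil-1* RNAi replicate 1 also ended the calls of 49, which then had adjusted p between 0.051 and 0.14, all in the same direction. The 35 that stayed past the threshold were *yl*, *Cyt-c1L*, *nanos*, *CG10132*, *CG4404*, *CG43799*, *CG43064*, *Ser*, *aly*, *CG9372*, *Pgant9*, *et*, *CG15803*, *COX4L*, *Mp*, *Sik2*, *Fs*, *CG12288*, *Gel*, *bgcn*, *Hml*, *PGRP-SA*, *grass*, *spz*, *ftz-f1*, *Jheh2*, *RpL22-like*, *RpL37-2*, *GstD3*, *Ugt317A1*, *Idgf6*, *beat-IIIc*, *DIP-lambda*, *Tig* and *sli*. Of further genes described below, *SPARC*, *ApepP*, *Irc* and *Sytalpha* stayed past it (adjusted p = 0.017, 0.030, 0.031 and 0.045) and *Tbh*, *Sting* and *unc-104* did not (0.052, 0.067 and 0.068). Of the 130 genes that rose, *jil-1* RNAi replicate 1 was the highest of the 4 RNAi libraries for 34. The median log2 fold-change of the 130 was 0.87 with that library and 0.82 without it.

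Of 8914 genes with more than 0 reads in all 8 samples, 130 rose (1.46%) and 174 fell (1.95%) upon *jil-1* RNAi, 304 in all (3.41%), at an adjusted p below 0.05 in edgeR's quasi-likelihood test with batch as a block. At an unadjusted p below 0.05, 10.3% were higher and 11.6% lower. With the replicate number as the block, 88 rose and 111 fell. Without *jil-1* RNAi replicate 1, 35 rose and 66 fell, and all 304 genes kept their direction. Leaving out any 1 of the 8 samples gave between 35 and 136 rises and between 50 and 168 falls. In batch 1 alone 7 rose and 19 fell. In batch 2 alone, with 2 samples against 2, edgeR called none, with 509 higher and 536 lower at an unadjusted p below 0.05. The genes that rose were of low level, with a median of 11.3 CPM in controls, and their median change was 1.83-fold. Those that fell had a median of 82.2 CPM in controls and changed 1.44-fold. A change of more than 1 on the log2 scale was reached by 52 genes that rose and 20 that fell. Fewer than 10 reads in some sample were found for 27 of the 130, 9 of the 174 and 1716 of the 8610 genes not called. Among the 25% of genes of lowest level 2.11% rose and 0.58% fell, with a median of 0.14. In the highest 25% these were 1.03%, 3.10% and -0.04. Tested genes needed reads in the shallowest libraries, which are RNAi samples, and the part of this filter was not tested. In 97 of the 130 all 4 RNAi samples lay above all 4 controls, and in 120 of the 174 all lay below. Over all genes tested this was so for 4.05% and 5.13%.

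**Figure D1:**
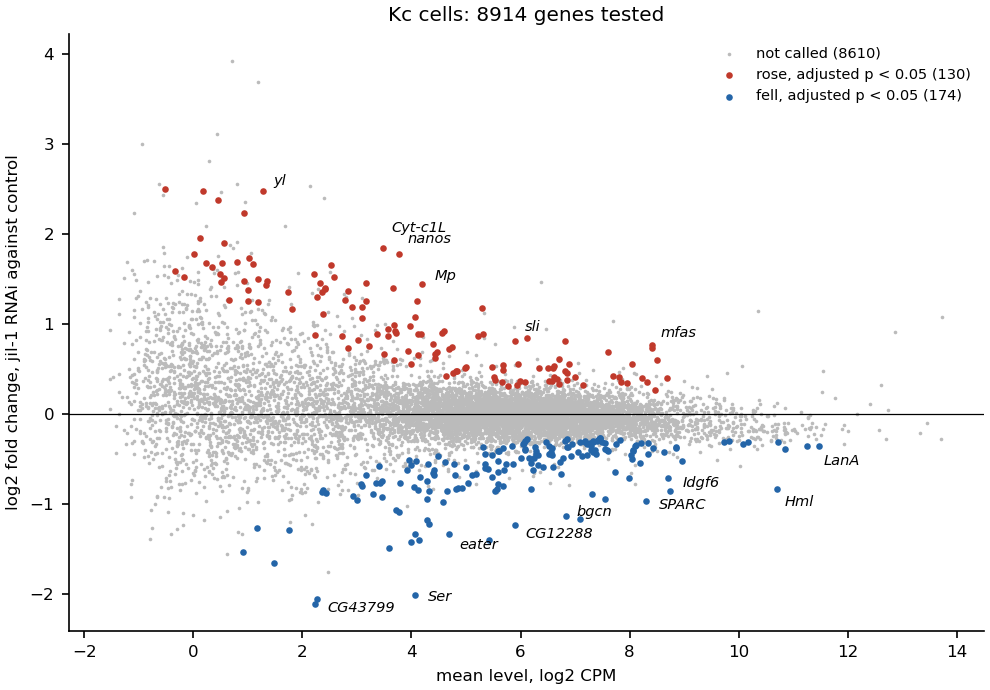
Log2 fold-change upon *jil-1* RNAi (y axis) against the mean level in log2 CPM (x axis) of each of the 8914 genes tested in Kc cells. The 130 genes that rose (red) reach larger changes and lie mostly at low levels, whereas the 174 that fell (blue) extend to abundant transcripts such as *Hml* and *LanA*.

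Among the genes that fell were *Hml*, *eater* and *Ppn*, which encode proteins that blood cells display or secrete. *Hml* (hemolectin, 3L:13846054-13860001), a clotting protein of plasmatocytes, had 2015, 2348, 1908 and 2218 CPM in control replicates 1 to 4 and 1141, 1199, 988 and 1438 CPM upon RNAi. The groups did not overlap, and *Hml* fell by 0.83 on the log2 scale (standard error 0.117, adjusted p = 0.0061). *eater*, a phagocytosis receptor for bacteria, had 28.7, 61.1, 22.8 and 25.7 CPM in controls and 14.6, 15.9, 11.03 and 13.1 CPM upon RNAi. It fell by 1.33 on the log2 scale (standard error 0.230, adjusted p = 0.015), and control replicate 2 lay far above the other controls. *Ppn* (papilin), a matrix proteoglycan, had 115, 152, 328 and 355 CPM in controls and 64.5, 54.3, 164 and 258 CPM upon RNAi. Its groups overlapped, the level was higher in batch 2 in both groups, and within both batches the RNAi samples were lower (log2 fold-change -0.94, standard error 0.155, adjusted p = 0.013).

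These falls were not shared by all blood cell markers. Of 13 plasmatocyte markers tested, 3 fell and 1 rose, and their median log2 fold-change was 0.05, against 0.0047 over all genes. Over all genes tested 1.46% rose and 1.95% fell, which is the background for counts of called list members here and below. The marker that rose was *He* (hemese), a surface protein of blood cells, with 124, 100.1, 49.6 and 49.2 CPM in controls and 185, 222, 60.7 and 116 CPM upon RNAi (log2 fold-change 0.82, standard error 0.165, adjusted p = 0.025). *srp*, the GATA factor that specifies blood cells, had a log2 fold-change of -0.02 (adjusted p = 0.93), and the receptors *crq* and *drpr* had 0.05 each (adjusted p = 0.77 and 0.70). *Hml* makes up most of the summed level of the 14 markers in the files, which was 3294 to 4121 CPM in controls and 2272 to 3119.5 CPM upon RNAi. Of 7 crystal cell and lamellocyte markers tested none was called by edgeR or DESeq2, and 2 had an unadjusted p below 0.05, both higher. Without *jil-1* RNAi replicate 1, *Hml* stayed past the threshold (adjusted p = 0.040), while *eater* (0.060), *Ppn* (0.051) and *He* (0.065) kept their changes and did not.

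Components of the extracellular matrix changed in both directions. Of 17 tested, 4 fell and 2 rose, and the median log2 fold-change was -0.34. *SPARC*, a collagen-binding protein of basement membranes, had 426, 293, 523 and 425 CPM in controls and 278, 130.3, 229 and 212 CPM upon RNAi, without overlap (log2 fold-change -0.96, standard error 0.204, adjusted p = 0.030). *Tig* (tiggrin), an integrin ligand, went from 346 ± 21.0 to 238 ± 24.996 CPM (SD, n = 4; log2 fold-change -0.54, adjusted p = 0.0053). *LanA*, a laminin alpha chain and one of the most abundant transcripts that fell, went from 3199 ± 204.6 to 2499.6 ± 169.5 CPM (log2 fold-change -0.36, adjusted p = 0.028, and 0.061 with the replicate block). The other laminin chains *LanB1* and *LanB2* had -0.34 and -0.35 and missed the threshold (adjusted p = 0.071 and 0.074), as did the type IV collagen genes *vkg* (-0.44, 0.14) and *Col4a1* (-0.19, 0.58). The matrix genes that rose were *Mp* (multiplexin), the collagen XV/XVIII homologue, and *wb* (wing blister), another laminin alpha chain. *Mp* had 9.52, 9.35, 7.65 and 14.3 CPM in controls and 23.9, 26.0, 32.6 and 27.0 CPM upon RNAi (log2 fold-change 1.44, standard error 0.164, adjusted p = 0.0029). *wb* was at 2.94 ± 1.36 and 8.23 ± 3.07 CPM (log2 fold-change 1.46, adjusted p = 0.031, 0.056 with the replicate block, and 0.072 with 1.14 without *jil-1* RNAi replicate 1).

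Of 28 genes of Toll and Imd signalling 3 fell and 1 rose, with 7 lower and 3 higher at an unadjusted p below 0.05. Over all genes tested these shares were 1.95%, 1.46%, 11.6% and 10.3%. Toll is activated when its ligand Spätzle is cut by a protease cascade that is started by recognition of microbial cell walls. *PGRP-SA*, which recognizes peptidoglycan, had 54.8, 61.1, 63.7 and 74.9 CPM in controls and 29.0, 38.2, 41.6 and 35.3 CPM upon RNAi (log2 fold-change -0.79, standard error 0.102, adjusted p = 0.0051). *grass*, a protease of the cascade, went from 23.4 ± 1.68 to 14.0 ± 1.51 CPM (log2 fold-change -0.74, adjusted p = 0.0064). The ligand gene *spz* had 88.5, 131, 66.1 and 78.4 CPM in controls and 58.4, 63.0, 40.4 and 44.0 CPM upon RNAi (log2 fold-change -0.83, standard error 0.121, adjusted p = 0.0074). None of the 3 overlapped between groups, and all 3 stayed past the threshold without *jil-1* RNAi replicate 1 (adjusted p between 0.024 and 0.040). Among members not called, *Tl* had -0.18 (adjusted p = 0.40), *cact* -0.08 (0.63) and *Dif* -0.15 (0.39). The gene that rose was *PGRP-LC*, the receptor of the Imd pathway, which stayed below 1.4 CPM in all samples (log2 fold-change 1.60, adjusted p = 0.036, and 0.080 with the replicate block). Of 19 antimicrobial peptide genes in the files, 2 had reads in all samples and neither was called by edgeR or DESeq2, with 1 lower at an unadjusted p below 0.05.

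*Idgf6*, of the family of chitinase-like imaginal disc growth factors, had 449, 666, 506 and 581 CPM in controls and 304, 274, 325 and 319.9 CPM upon RNAi (log2 fold-change -0.85, standard error 0.116, adjusted p = 0.0053). Its relative *Idgf1* rose from 92.2 ± 30.1 to 119 ± 44.0 CPM (log2 fold-change 0.34, adjusted p = 0.039, and 0.054 with the replicate block). *Gel* (gelsolin), an actin-severing protein, had 203, 221, 180.3 and 212 CPM in controls and 101, 101, 114 and 131 CPM upon RNAi. It fell by 0.88 on the log2 scale (standard error 0.0948, adjusted p = 0.0024), without overlap and with a small spread in both groups. The peroxidase gene *Irc* and the innate immune gene *Sting*, picked after their values were seen, fell by 0.71 and 0.49 (adjusted p = 0.0071 and 0.022).

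**Figure D2:**
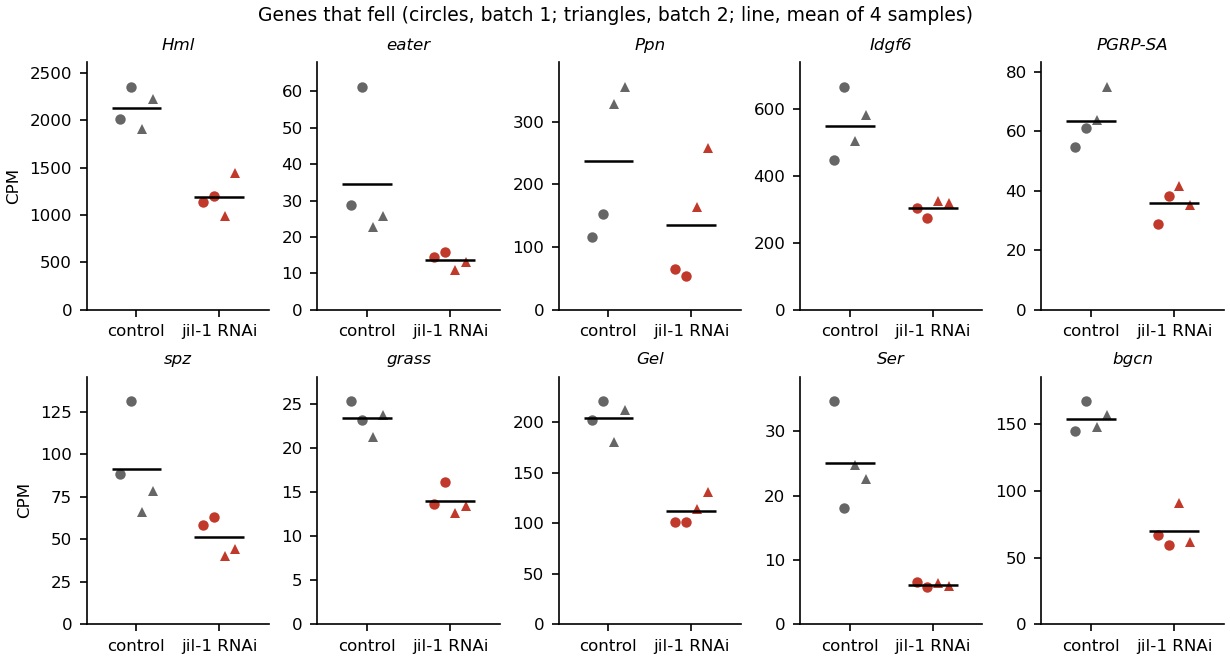
Level in CPM of 10 genes that fell, in each control sample (grey) and each *jil-1* RNAi sample (red) of Kc cells. Circles are batch 1, triangles are batch 2 and lines are means of 4 samples, and only in *Ppn* did the groups overlap.

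Signalling genes gave some of the largest falls. *Ser* (Serrate, 3R:27172090-27194267), one of the Notch ligands, had 34.7, 18.1, 24.8 and 22.6 CPM in controls and 6.49, 5.80, 6.33 and 5.95 CPM upon RNAi. All RNAi samples lay close together and far below the controls (log2 fold-change -2.01, standard error 0.213, adjusted p = 0.0024). It was the only one of 12 Notch pathway genes that was called, and 11 of the 12 had log2 fold-changes above 0. *et* (eye transformer), a receptor-like inhibitor of JAK-STAT signalling, had 59.2, 81.0, 41.1 and 59.1 CPM in controls and 17.6, 21.2, 27.3 and 22.2 CPM upon RNAi (log2 fold-change -1.40, standard error 0.198, adjusted p = 0.0063). No other of 10 JAK-STAT genes was called, and *Stat92E* had -0.01 (adjusted p = 0.95). Of the 10 genes, 8 had log2 fold-changes above 0, with a median of 0.24. At an unadjusted p below 0.05, 5 were higher and 1 lower, and DESeq2 called 1 higher and 1 lower. The falls of *Ser* and *et* held without *jil-1* RNAi replicate 1 (adjusted p = 0.017 and 0.031).

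In the Hedgehog pathway 2 genes rose and none fell. *ptc* (patched), the Hedgehog receptor and a target of the pathway, had 15.7, 12.7, 9.81 and 11.2 CPM in controls and 36.4, 26.1, 13.3 and 21.0 CPM upon RNAi (log2 fold-change 0.89, standard error 0.184, adjusted p = 0.028). *ci* (cubitus interruptus), the transcription factor of the pathway, had 6.50, 8.95, 5.74 and 7.66 CPM in controls and 32.5, 9.33, 21.0 and 14.7 CPM upon RNAi (log2 fold-change 1.41, standard error 0.323, adjusted p = 0.041, and 0.073 with the replicate block). Both were highest in replicate 1, and without it the changes were 0.73 (adjusted p = 0.088) and 0.98 (0.12). All 10 pathway genes tested had log2 fold-changes above 0, with a median of 0.17. This was not particular to the pathway. Above 0 were also 11 of 12 Wnt genes (median 0.14), 11 of 12 Notch genes (0.18) and 14 of 16 insulin and TOR genes (0.087). In the PVR and FGF list it was 2 of 7 (-0.11), and over all genes 4536 of 8914.

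Genes of the germ line changed in both directions. *nanos* (3R:19157238-19160202), a translational repressor needed for germ cells and the posterior of the embryo, had 7.42, 6.19, 6.10 and 5.88 CPM in controls and 25.3, 27.3, 20.5 and 12.3 CPM upon RNAi. This was the rise with the smallest adjusted p (log2 fold-change 1.78, standard error 0.169, adjusted p = 0.0016). *Cyt-c1L* (3R:29202660-29204133), a cytochrome c1 gene kept in a list of testis genes, had 4.21, 3.27, 7.29 and 6.90 CPM in controls and 17.9, 20.04, 17.0 and 19.0 CPM upon RNAi (log2 fold-change 1.84, standard error 0.210, adjusted p = 0.0029). The spread of its RNAi samples was small and there was no overlap. *yl* (yolkless), the yolk receptor of the oocyte, had 0.458, 0.975, 0.718 and 1.02 CPM in controls and 8.58, 2.27, 3.92 and 3.97 CPM upon RNAi (log2 fold-change 2.48, adjusted p = 0.016). It was highest in replicate 1, and without it the change was 1.90 (adjusted p = 0.039). *fs(1)N*, a gene for an eggshell protein, went from 0.831 ± 0.203 to 2.77 ± 1.45 CPM (log2 fold-change 1.74, adjusted p = 0.031, and 0.072 with the replicate block). *rhi* (rhino), the HP1 homologue that marks piRNA clusters, went from 23.6 ± 0.965 to 33.9 ± 6.00 CPM (log2 fold-change 0.48, adjusted p = 0.045, and 0.072 with the block). It was the only one called of 32 genes of small RNA silencing, of which 19 had log2 fold-changes below 0, with a median of -0.04. Of the 32, 6 were lower and 4 higher at an unadjusted p below 0.05.

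The germ line genes that fell were *bgcn* and *aly*. *bgcn* (benign gonial cell neoplasm), a partner of Bam in germ cell differentiation, had 145, 167, 148 and 157 CPM in controls and 66.8, 59.7, 91.2 and 61.9 CPM upon RNAi (log2 fold-change -1.13, standard error 0.121, adjusted p = 0.0024). *aly* (always early), a component of the testis meiotic arrest complex, had 5.13, 4.42, 2.39 and 1.92 CPM in controls and 1.39, 1.51, 0.783 and 0.397 CPM upon RNAi (log2 fold-change -1.65, standard error 0.255, adjusted p = 0.010). Of 13 genes of oogenesis and yolk 2 rose and 1 fell, and of 10 testis genes 1 rose and 1 fell. Over all genes tested 1.46% rose and 1.95% fell.

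Ribosomal protein genes moved little and mostly downward, and paralogs of low level rose. Of 84 cytosolic ribosomal protein genes tested, 77 had log2 fold-changes below 0, with a median of -0.17, and 5 fell and 2 rose. Over all genes tested, 49.1% were below 0. *RpL9* had 2240.1, 2357, 1888 and 1818 CPM in controls and 1841, 1828, 1293 and 1413 CPM upon RNAi (log2 fold-change -0.39, standard error 0.0709, adjusted p = 0.017). The others that fell were *RpL23*, *RpL7*, *RpL11* and *RpS15Ab*, with log2 fold-changes between -0.44 and -0.31. With the replicate block 2 fell, *RpL23* was lost (adjusted p = 0.061), and none of the 5 was called without *jil-1* RNAi replicate 1, where the median of the list was -0.18. The members that rose were *RpL22-like*, a germ line paralog of *RpL22*, and *RpL37-2*. *RpL22-like* had 0.732, 0.803, 1.08 and 1.28 CPM in controls and 2.32, 2.39, 3.20 and 2.78 CPM upon RNAi (log2 fold-change 1.49, standard error 0.243, adjusted p = 0.012). *RpL37-2* went from 0.375 ± 0.184 to 1.41 ± 0.727 CPM (log2 fold-change 1.96, adjusted p = 0.016), and only uniquely aligned reads were counted, so reads shared with its copy are missing.

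Nucleolar proteins behaved like the ribosomal proteins. In a list written after the calls were known, 25 of 25 assembly factors of the nucleolus and of snoRNPs had log2 fold-changes below 0, with a median of -0.22, and 8 fell. Since the list was prompted by these calls, its count is a description. *Nop56*, a core protein of box C/D snoRNPs, had 312, 316, 331 and 345 CPM in controls and 277, 279.7, 234 and 253 CPM upon RNAi (log2 fold-change -0.32, standard error 0.0743, adjusted p = 0.041). Also called were *nop5*, *NHP2*, *Rrp5*, *Non3*, *Nph*, *Ns3* and the RNA polymerase I subunit gene *Polr1C*, with log2 fold-changes between -0.36 and -0.29. None of the 8 was called with the replicate block or without *jil-1* RNAi replicate 1, although the median was -0.26 without that library. *snoRNA:Psi18S-1275* fell from 2.66 ± 0.327 to 1.15 ± 0.222 CPM (log2 fold-change -1.26, adjusted p = 0.027, and 0.067 with the block), the only one of 170 snoRNAs called.

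Genes of energy metabolism and protein turnover, glycolysis aside, mostly had log2 fold-changes below 0, and few single genes passed the threshold. Over all genes tested 1.95% fell, and 11.6% were lower at an unadjusted p below 0.05. Of 68 respiratory chain genes 4 fell and none rose, with 26 lower and none higher at an unadjusted p below 0.05 and a median of -0.15. *ATPsyngamma*, the gamma subunit of ATP synthase, had 201, 204, 202 and 221 CPM in controls and 165, 164, 162 and 172 CPM upon RNAi (log2 fold-change -0.32, standard error 0.0601, adjusted p = 0.018). *COX4L*, a copy of a cytochrome oxidase subunit gene, went from 4.27 ± 0.813 to 1.62 ± 0.476 CPM (log2 fold-change -1.28, adjusted p = 0.017). *ATPsynG* and *ND-MLRQ* fell by 0.31 and 0.28 (adjusted p = 0.033 and 0.040, and 0.067 and 0.075 with the replicate block). *Mdh2*, malate dehydrogenase, and *Gapdh1* fell by 0.32 each (adjusted p = 0.024 and 0.028, and 0.054 and 0.055 with the block). They were the only ones called of 14 genes of the TCA cycle and 12 of glycolysis, where 10 and 6 had log2 fold-changes below 0 and the medians were -0.06 and -0.03. Of 70 mitochondrial ribosomal protein genes none was called by edgeR or DESeq2, with 11 lower and none higher at an unadjusted p below 0.05 and a median of -0.11. Of 34 proteasome genes none was called by edgeR, and DESeq2 called 2 lower. At an unadjusted p below 0.05, 12 were lower and none higher, with a median of -0.14.

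Enzymes of detoxification and hormone turnover changed in both directions, and most were not called. Of 29 glutathione S-transferase genes 4 fell and none rose, with 13 lower and 2 higher at an unadjusted p below 0.05, and the median was -0.21. *GstD3* had 247, 233, 181 and 183 CPM in controls and 169.8, 185, 144 and 144 CPM upon RNAi, which overlapped, with batch 2 lower in both groups (log2 fold-change -0.39, standard error 0.0610, adjusted p = 0.011). *GstE6*, *GstE12* and *GstE2* fell by 0.41, 0.41 and 0.39 (adjusted p = 0.023, 0.028 and 0.042, the last 0.067 with the replicate block). The neighbouring genes *Jheh1* and *Jheh2*, epoxide hydrolases that degrade juvenile hormone, fell by 0.55 and 0.40 (adjusted p = 0.023 and 0.016). Of 14 UDP-glycosyltransferase genes 2 fell and 1 rose, against 1.95% and 1.46% over all genes tested. *Ugt317A1* had 26.7, 28.7, 48.1 and 41.3 CPM in controls and 16.7, 16.6, 21.1 and 29.8 CPM upon RNAi (log2 fold-change -0.82, standard error 0.116, adjusted p = 0.0064), and *Ugt49B1* fell by 0.53 (adjusted p = 0.017). *Ugt36E1* rose from 0.177 ± 0.105 to 1.10 ± 0.362 CPM (log2 fold-change 2.50, adjusted p = 0.024, and 0.072 without *jil-1* RNAi replicate 1), and 1 of 46 cytochrome P450 genes, *Cyp4aa1*, rose by 0.89 (adjusted p = 0.046, and 0.053 with the block).

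**Figure D3:**
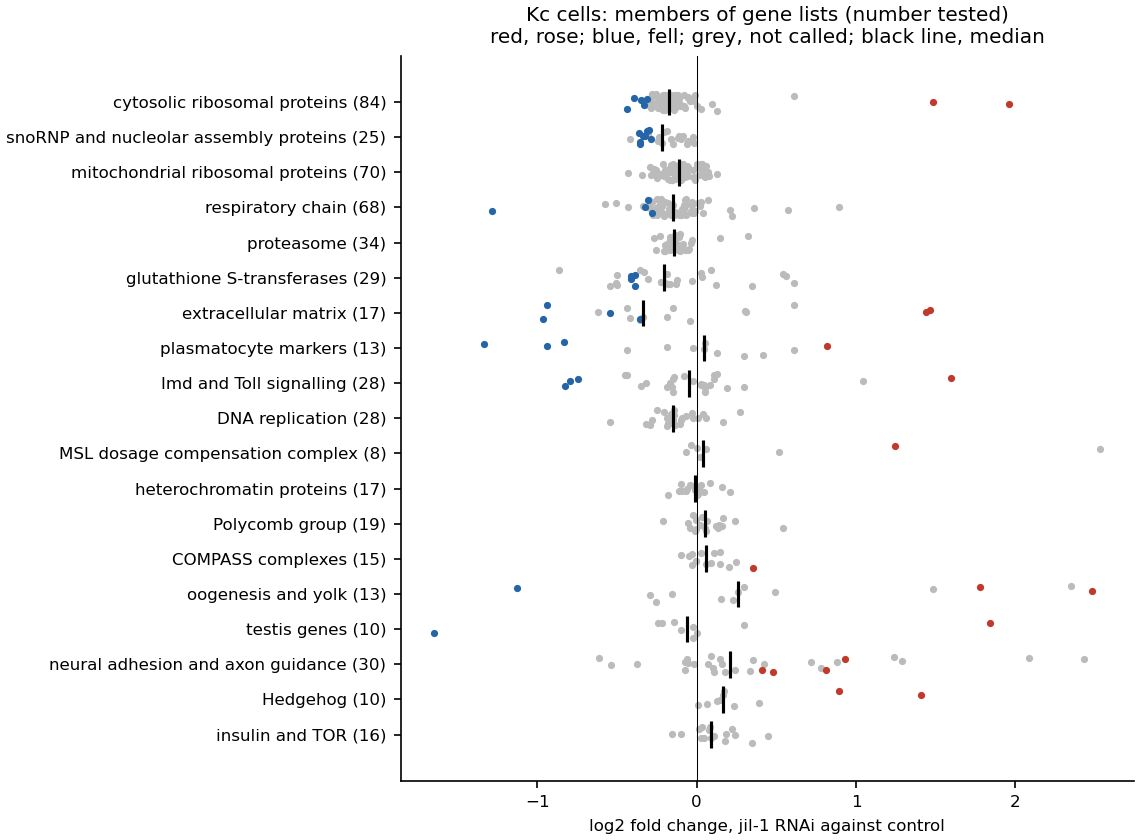
Log2 fold-change upon *jil-1* RNAi of the members of 19 gene lists in Kc cells, with the number of members tested in parentheses. Points are genes (red, rose; blue, fell; grey, not called) and black lines are medians, which lie at -0.17 for cytosolic ribosomal proteins, -0.22 for nucleolar proteins and 0.21 for neural adhesion and axon guidance.

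Some genes known from the nervous system rose. Of 30 genes of neural adhesion and axon guidance 4 rose and none fell, with 11 higher and 2 lower at an unadjusted p below 0.05 and a median of 0.21. *sli* (slit), the repulsive ligand of Robo receptors, had 43.6, 48.9, 35.996 and 45.2 CPM in controls and 95.3, 68.2, 66.7 and 79.0 CPM upon RNAi (log2 fold-change 0.81, standard error 0.118, adjusted p = 0.0071). *Sema1a*, a transmembrane semaphorin, had 8.06, 9.41, 7.06 and 12.5 CPM in controls and 22.96, 16.3, 15.7 and 16.3 CPM upon RNAi (log2 fold-change 0.93, standard error 0.195, adjusted p = 0.028). *kek5* and *PlexB*, a plexin, rose by 0.48 and 0.41 (adjusted p = 0.031 and 0.044, the last 0.074 with the replicate block). Without *jil-1* RNAi replicate 1, *sli* stayed past the threshold at 0.71 (adjusted p = 0.031), and *Sema1a* (0.089), *kek5* (0.11) and *PlexB* (0.11) did not.

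Other neuronal genes gave mixed results. *beat-IIIc*, of the Beaten path family of immunoglobulin proteins, had 5.31, 10.5, 9.33 and 15.3 CPM in controls and 15.8, 16.8, 37.5 and 29.8 CPM upon RNAi (log2 fold-change 1.26, standard error 0.221, adjusted p = 0.016). *DIP-lambda* went from 0.541 ± 0.487 to 2.02 ± 1.96 CPM (log2 fold-change 1.90, adjusted p = 0.017, and 0.051 with the replicate block), and *dpr17* fell by 1.06 (adjusted p = 0.017). These were the only ones called of 15 genes of the beat, side, dpr and DIP families, against 3.41% called over all genes tested. *elav*, an RNA-binding protein widely used as a neuronal marker, had 22.6, 21.3, 28.1 and 34.9 CPM in controls and 36.6, 27.5, 44.1 and 46.4 CPM upon RNAi (log2 fold-change 0.52, standard error 0.108, adjusted p = 0.028), the only one called of 11 neuronal genes. Picked after their values were seen, *Tbh*, which makes octopamine, *Sytalpha*, a synaptotagmin, and the kinesin gene *unc-104* rose by 1.39, 1.31 and 0.49 (adjusted p = 0.014, 0.020 and 0.020).

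**Figure D4:**
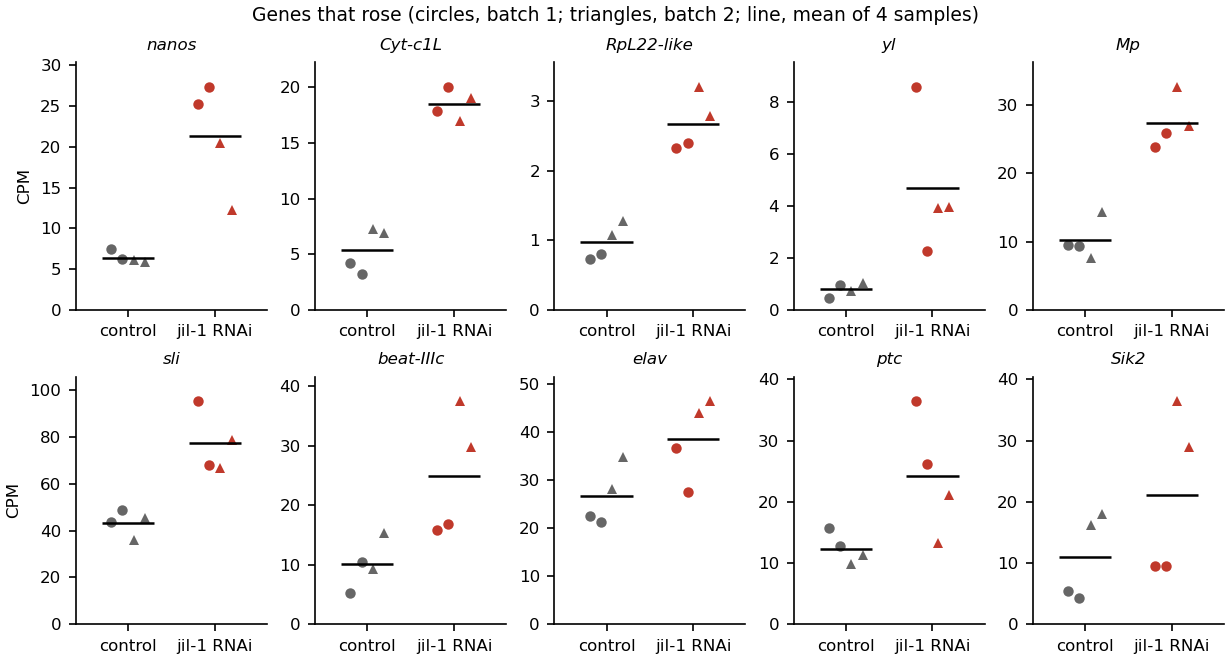
Level in CPM of 10 genes that rose, in each control sample (grey) and each *jil-1* RNAi sample (red) of Kc cells. Circles are batch 1, triangles are batch 2 and lines are means of 4 samples. In *elav*, *ptc* and *Sik2* the groups overlapped, and in *yl*, *sli* and *ptc* the highest RNAi sample was replicate 1.

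Regulators of growth, hormone response and stress were represented by single genes. *Sik2*, a salt-inducible kinase, had 5.40, 4.30, 16.1 and 18.01 CPM in controls and 9.51, 9.58, 36.4 and 29.0 CPM upon RNAi, and it rose within both batches although the batches differed more than the groups (log2 fold-change 0.98, standard error 0.127, adjusted p = 0.0051). *Fs* (follistatin), an antagonist of activin ligands, went from 4.18 ± 0.274 to 10.1 ± 2.05 CPM (log2 fold-change 1.27, adjusted p = 0.0053). *mfas* (midline fasciclin) went from 254 ± 79.6 to 429 ± 99.4 CPM (log2 fold-change 0.76, adjusted p = 0.030). *aay*, a phosphoserine phosphatase, rose by 0.92 (adjusted p = 0.031), *Gadd45* by 0.42 (adjusted p = 0.046, and 0.054 with the replicate block) and the nuclear receptor gene *ftz-f1* by 0.41 (adjusted p = 0.016). *Sr-CII*, a scavenger receptor, rose by 1.07 (adjusted p = 0.034), and the cuticle gene *Cpr49Ae* by 1.52 (adjusted p = 0.035, and 0.072 with the block). Of 18 heat shock genes none was called by edgeR and DESeq2 called 1 lower, with 2 lower at an unadjusted p below 0.05. Of the 18, 15 had log2 fold-changes below 0, with a median of -0.31, against 49.1% below 0 over all genes tested. Of 15 DNA damage genes edgeR called none and DESeq2 1 lower, with 1 lower at an unadjusted p below 0.05. Their median was 0.03. Of 28 DNA replication genes edgeR called none and DESeq2 2 lower, with 9 lower and 1 higher at an unadjusted p below 0.05. Here 23 of the 28 were below 0, with a median of -0.15.

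Chromatin genes, the setting in which JIL-1 acts, gave few calls at the level of RNA. Over all genes tested 3.41% were called, and few or no calls in lists of this size are near that share. The partner gene *Jasper* was not called (log2 fold-change -0.05, standard error 0.0703, adjusted p = 0.75), with 93.7, 86.7, 97.5 and 98.2 CPM in controls and 88.6, 94.3, 85.4 and 96.4 CPM upon RNAi. No gene passed the threshold in edgeR or DESeq2 among 17 heterochromatin proteins, 9 genes of H3K36 methylation, 10 of the Brahma complexes, 7 of the NSL complex and 19 of the Polycomb group. Among these 5 lists, 1 Polycomb group gene was higher and 1 lower at an unadjusted p below 0.05. *trx* (trithorax), an H3K4 methyltransferase, had 214, 207, 172 and 211 CPM in controls and 270.0, 278, 223 and 259.9 CPM upon RNAi (log2 fold-change 0.35, standard error 0.0792, adjusted p = 0.036), the only one called of 15 genes of the COMPASS complexes. *His3.3A*, which encodes the replacement histone H3.3, fell by 0.28 (adjusted p = 0.046, and 0.080 with the replicate block). *Ibf2*, an insulator-binding factor, fell by 0.41 (adjusted p = 0.027, and 0.056 with the block). Without *jil-1* RNAi replicate 1 none of the 3 was called, at 0.36, -0.27 and -0.45.

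Of the 8 genes of the male dosage compensation complex, only *lncRNA:roX2* was called. It had 1.92, 1.95, 0.718 and 0.639 CPM in controls and 4.87, 2.90, 2.61 and 1.59 CPM upon RNAi (log2 fold-change 1.25, standard error 0.297, adjusted p = 0.048, and 0.089 with the replicate block). The groups overlapped, and without *jil-1* RNAi replicate 1 the change was 1.12 (adjusted p = 0.13). All these values are far below the level in S2 cells. The protein genes *msl-1*, *msl-2*, *msl-3*, *mle* and *mof* had log2 fold-changes between -0.04 and 0.52, none of them called. *lncRNA:roX1* had 2.53 and was not called, and it was highest in *jil-1* RNAi replicate 1. Of the 8 genes, 3 were higher and none lower at an unadjusted p below 0.05, and DESeq2 called 1 higher. In a list of *lncRNA:roX1*, *lncRNA:roX2*, *msl-2* and *Sxl*, all 4 were higher at an unadjusted p below 0.05, and DESeq2 called 2. Of 223 long noncoding RNAs 2 rose and 2 fell. *lncRNA:CR44453* rose by 1.27 (adjusted p = 0.038, and 0.082 with the block), and *lncRNA:CR43883* and *lncRNA:CR46064* fell by 0.86 and 0.40 (adjusted p = 0.028 and 0.035, and 0.073 and 0.058 with the block).

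The largest changes included genes of unknown role. *CG43799* had 8.15, 9.46, 3.47 and 3.70 CPM in controls and 1.39, 3.02, 0.587 and 0.794 CPM upon RNAi (log2 fold-change -2.10, standard error 0.269, adjusted p = 0.0051). *CG15803* had 23.3, 26.0, 23.3 and 23.5 CPM in controls and 10.9, 8.82, 8.09 and 9.92 CPM upon RNAi, and with *Pgant9* it had the smallest adjusted p of all genes (log2 fold-change -1.39, standard error 0.118, adjusted p = 0.0010). *Pgant9*, a mucin-type glycosyltransferase, had 24.4, 24.4, 18.2 and 18.5 CPM in controls and 11.1, 9.70, 5.94 and 5.95 CPM upon RNAi (log2 fold-change -1.42, standard error 0.123). Also lower were *CG43064* (-2.05), the predicted protease gene *CG9372* (-1.49) and *CG34031* (-1.33), with adjusted p between 0.0051 and 0.019. Among the rises by this rule were *CG10132*, which went from 2.87 ± 1.17 to 9.14 ± 2.59 CPM (log2 fold-change 1.66, adjusted p = 0.0032), and *CG4250*, *CG4404*, *CG4596*, *CG6044*, *CG15760* and *zyd*, with log2 fold-changes between 1.46 and 1.67. Of these 6, *CG4404* stayed past the threshold without *jil-1* RNAi replicate 1 (adjusted p = 0.041), and *CG4596*, *CG15760* and *zyd* were lost with the replicate block (adjusted p = 0.053, 0.072 and 0.074).

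Neighbouring genes were examined for shared calls. Of 8718 consecutive pairs of tested genes, 18 had both members called, 13 in the same direction. Over all genes 3.41% were called, and how many such pairs would arise from that share was not tested. *CG12288* had 92.9, 81.2, 77.0 and 77.4 CPM in controls and 29.9, 29.6, 44.1 and 34.9 CPM upon RNAi (2L:16900535-16902218, log2 fold-change -1.23, adjusted p = 0.0024). The next tested gene, *ApepP* (2L:16908229-16910418), an aminopeptidase, had 182, 189, 184 and 180.5 CPM in controls and 61.2, 62.3, 122 and 90.5 CPM upon RNAi (log2 fold-change -1.16, adjusted p = 0.0053). Other pairs of which both fell were *spz* with *eater*, 25797 bases apart, *grass* with *CG5909*, and *Jheh1* with *Jheh2*. *Pgant9* and *Idgf6* also both fell, and their spans overlap on opposite strands.

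Arms of the chromosomes and gene size were compared as a description. On the X, 36 of 1511 tested genes rose (2.38%) and 17 fell (1.13%). On 3R, 22 of 2113 rose (1.04%) and 55 fell (2.603%), and 2L, 2R and 3L lay between 1.19% and 1.39% for rises and between 1.84% and 2.05% for falls. On chromosome 4, 3 of 76 rose (3.95%) and none fell, with a median log2 fold-change of 0.076. The median was 0.031 on the X and between -0.015 and 0.013 on the major autosomal arms. Among the 25% of protein-coding genes with the longest span 3.78% rose and 1.49% fell, whereas among the 25% with the shortest span 0.943% rose and 2.68% fell. The median log2 fold-change went from -0.06 in the shortest to 0.087 in the longest of these groups. The genes that rose had a median span of 9.29 kb and those that fell 2.39 kb. The shares of reads outside genes and of unmapped reads given above moved with the groups, and their part in this pattern was not tested.

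The response was then set beside that of male S2 cells, which share no sample with Kc cells and had 5 control and 5 *jil-1* RNAi samples. Of 7952 genes with reads in all 18 samples, the response was higher in Kc cells for 304 (3.82%) and lower for 298 (3.75%) by a test of the interaction. Of the genes called in Kc cells, 91 that rose and 153 that fell were among them. Since these were chosen by their Kc values, their median change is larger there by choice, 0.67 in Kc against 0.02 in S2 cells for the rises and -0.49 against -0.12 for the falls. The S2 change had the same sign for 47 of the 91 (51.6%) and 114 of the 153 (74.5%), and over all genes for 55.1%. Over all 7952 genes, 6.26% rose and 7.97% fell in S2 cells. Of the Kc calls, 20 of the 91 also rose in S2 cells and 48 of the 153 also fell, whereas 9 and 3 were called in the opposite direction.

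Single genes show both patterns. *nanos* had a log2 fold-change of 1.80 in S2 cells (adjusted p = 0.0029), and a difference between the lines was not called (adjusted p = 0.97), although its control level, without TMM scaling, was 5.93 to 6.93 CPM in Kc and 0.244 to 0.877 CPM in S2 cells. *Cyt-c1L* rose in both and by more in S2 cells, by 4.11 (difference -2.27, adjusted p = 0.00024). Its mean in S2 cells was 1.06 CPM in controls and 16.7 CPM upon RNAi. *Sik2* rose by 1.47 in S2 cells and its difference was not called (adjusted p = 0.084). *PGRP-SA*, *grass* and *dpr17* fell by 0.56, 0.61 and 0.87 in S2 cells (adjusted p = 0.00016, 2.3e-05 and 0.0015), and their differences were not called (adjusted p = 0.31, 0.58 and 0.69). *bgcn* rose in S2 cells by 0.92 (adjusted p = 0.035) while it fell in Kc cells, with a difference of -2.04 (adjusted p = 0.00051). Its level in S2 cells was low, with means of 1.10 CPM in controls and 2.12 CPM upon RNAi. In Kc cells the means were 154 and 69.9 CPM.

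For other genes named above the responses of the lines differed. *CG12288* had 0.13 in S2 cells (difference -1.35, adjusted p = 1.1e-05), *Gel* -0.12 (difference -0.76, 0.00072), *Idgf6* 0.07 (difference -0.93, 0.00032), *spz* -0.05 (difference -0.78, 0.0015) and *Ppn* 0.05 (difference -0.995, 0.0017). *Hml* fell in S2 cells by 0.45 (adjusted p = 0.031), and its difference of -0.39 was not called (0.19). It was at 18.1 to 43.2 CPM in control S2 cells. *sli* had -0.26 in S2 cells (difference 1.07, adjusted p = 0.00051) and *ptc* -0.04 (difference 0.92, 0.011). *RpL9* and *ATPsyngamma* had -0.04 and 0.10 in S2 cells (differences -0.35 and -0.42, adjusted p = 0.014 and 0.0044).

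**Figure D5:**
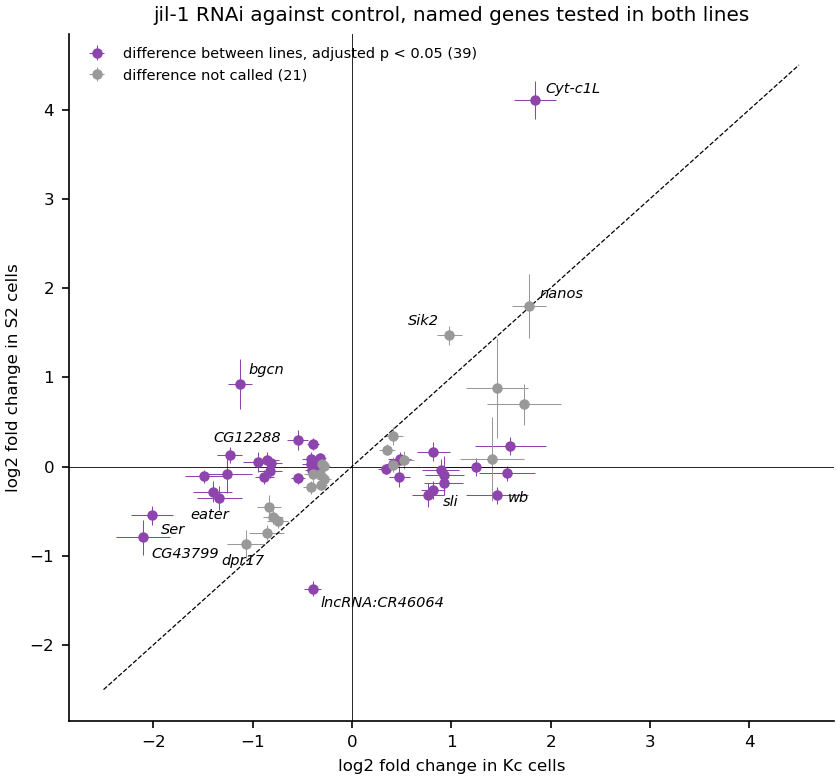
Log2 fold-change upon *jil-1* RNAi in Kc cells (x axis) and in S2 cells (y axis) of 60 named genes tested in both lines, with standard errors. The dashed line marks equal change, and the 39 genes whose difference between the lines had an adjusted p below 0.05 are purple. Genes were chosen by their Kc values.

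The 4 samples of Kc cells treated with *jasper* RNAi share their controls with this comparison, so their values are only set side by side. *Ser* had -2.01 upon *jil-1* RNAi and -1.33 upon *jasper* RNAi (adjusted p = 0.0055 for the latter). *bgcn* had -1.13 and -1.01 (adjusted p = 0.0011), *Mp* 1.44 and 1.70 (0.00014), *beat-IIIc* 1.26 and 1.25 (0.0092) and *Tig* -0.54 and -0.67 (0.0012). *nanos* had 1.78 and 0.06 (adjusted p = 0.91), *Cyt-c1L* 1.84 and 0.54 (0.24), *eater* -1.33 and -0.08 (0.87), *Idgf6* -0.85 and -0.08 (0.76) and *Gel* -0.88 and 0.14 (0.64).

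Reads on the strand opposite to genes were tested as well. Of 5547 genes with such reads in all 8 samples, 14 rose (0.252%) and 26 fell (0.469%). For 15 of these 40 a gene annotated on the other strand was itself called, in the same direction in all 15 cases. Examples are reads opposite to *Lon*, where *CG9372* lies, and opposite to *CG11779*, where *nanos* lies. Reads on the own strand were called for 1 of the 40, FBgn0024977, which has no name or place in the annotation and fell on both strands.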

How the data were processed

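Paired reads were mapped by the authors with STAR 2.6.0 on genome release 6, who deposited whole-number counts per gene from uniquely aligned reads, without normalization, for both strands together, for the strand of the gene and for the opposite strand. RSEM 1.3.0 is also named in the submitters' notes and its values were not used here. The counts for the gene's own strand were taken unless stated, with *JIL-1* removed before library sizes were taken. Genes with more than 0 reads in all 8 samples were tested with edgeR 4.0.16 in R 4.3.3 (TMM scaling, quasi-likelihood F-test, batch as a block, two-sided, Benjamini-Hochberg adjustment over 8914 genes, threshold 0.05). The standard error of a log2 fold-change was taken as its size over the root of F, and CPM are scaled by TMM except for *JIL-1*, markers and patterning genes, which are per 1000000 reads on genes without scaling. The biological coefficient of variation was 11.2%. Gene places are from Ensembl release 115 (assembly BDGP6.54), in which 188 tested genes were not found.

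Same-numbered samples deviated together from the group means (r between 0.26 and 0.35), and not once batch means were removed (-0.065 and -0.14), so that batch was kept as the main block and the replicate number was used as an alternative, given where it ends a call. No 2 samples of a group were alike beyond sampling noise (chi-square per degree of freedom 8.51 to 60.2 over 12 pairs).

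Named genes were the 12 largest rises and falls with mean levels of 1 log2 CPM or more and the same direction in all 4 pairs, the 6 smallest adjusted p in each direction, up to 4 called members of each of 63 lists, and *Jasper*. Members and lists were chosen with earlier results of these data known, and 5 lists were added after the calls were seen. In simulated data of 8506 genes with the spread of these 8 samples, 62.7% of changes of 0.5, 91.0% of changes of 1 and all changes of 2 on the log2 scale were found, and 5.06% of the calls were of unchanged genes. The changed genes were drawn from those with higher mean counts, and no simulated library was made to stand apart. These shares therefore need not hold for genes of few reads or for data with such a library. Alternatives were DESeq2 1.42.0, other scalings and filters, counts without regard to strand, other blocks, all 12 Kc samples, *JIL-1* kept and samples or batches left out. Leaving out both of the shallowest libraries was added after seeing the data.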

Additional observations from a re-analysis of the deposited data

Results flagged for a closer look

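Single samples lay far from the other 3 of their group, by Dixon's test at the 95% level, for 10 of the 85 named genes. Each gene has a control and an RNAi group. Chance flags about 1 in 20 groups, and the count seen is near that share. Among controls, *eater* was at 61.1 CPM in replicate 2 against 28.7 CPM in the next sample, and *CG15803* was at 26.0 CPM against 23.5 CPM. *ATPsyngamma* was at 221 CPM in 1 control against 204 CPM in the next. The lowest control stood apart for *trx*, at 172 CPM against 207 CPM, and for *snoRNA:Psi18S-1275*, at 2.17 CPM against 2.75 CPM. Among the *jil-1* RNAi samples the highest stood apart for *Sema1a*, at 22.96 CPM against 16.3 CPM, for *CG34031*, at 16.1 CPM against 5.95 CPM, for *CG43064*, at 2.87 CPM against 1.01 CPM, and for *ND-MLRQ*, at 164 CPM against 154 CPM. The lowest stood apart for *CG4596*, at 1.59 CPM against 3.39 CPM.

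The response differed between Kc and S2 cells by the test of the interaction (edgeR, adjusted p below 0.05) for 39 named genes, which were chosen by their Kc values. The log2 fold-change in Kc minus that in S2 cells was above 0 for *wb* (1.68), *CG4250* (1.56), *PGRP-LC* (1.34), *lncRNA:roX2* (1.19), *aay* (1.10), *mfas* (1.07), *sli* (1.07), *Sema1a* (1.02), *lncRNA:CR46064* (0.97), *ptc* (0.92), *He* (0.64), *kek5* (0.59), *ftz-f1* (0.38), *rhi* (0.38) and *Idgf1* (0.36). It was below 0 for *Cyt-c1L* (-2.27), *bgcn* (-2.04), *Ser* (-1.45), *CG9372* (-1.37), *CG12288* (-1.35), *CG43799* (-1.30), *snoRNA:Psi18S-1275* (-1.18), *et* (-1.11), *eater* (-0.996), *Ppn* (-0.995), *Idgf6* (-0.93), *Ugt317A1* (-0.88), *Jheh1* (-0.85), *spz* (-0.78), *Gel* (-0.76), *GstD3* (-0.64), *Ibf2* (-0.51), *GstE12* (-0.45), *ATPsyngamma* (-0.42), *Tig* (-0.41), *Jheh2* (-0.36), *RpL23* (-0.35), *RpL9* (-0.35) and *LanA* (-0.34).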

How the results depend on the processing

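All 84 named genes that were called kept their direction under every alternative that gave them a value. *Jasper*, not called, had -0.05, with 0.017 in batch 1 alone and -0.086 to 0.014 on leaving out 1 sample. The counts of rises and falls, 130 and 174, were within 1.5 times under RLE scaling, scaling from autosomal genes, stricter filters, counts without regard to strand, all 12 Kc samples and with *JIL-1* kept. They were 527 and 555 with no filter on low counts, where edgeR's prior degrees of freedom were infinite against 5.72 and the spread of a gene was therefore its trend value, 208 and 321 with DESeq2, and 7 and 14 with no batch term. With the replicate number as the block they were 88 and 111, and 186 of the 304 calls were shared. They were 7 and 19 in batch 1 alone and 0 and 0 in batch 2 alone. Leaving out 1 sample gave 35 to 136 rises and 50 to 168 falls. The rises and falls were 79 and 107 without control replicate 1, 36 and 79 without control replicate 3 and 54 and 82 without control replicate 4. They were 35 and 66, 44 and 50, 70 and 119, and 85 and 124 without *jil-1* RNAi replicates 1, 2, 3 and 4. Without replicates 1 and 4 together, a choice made after seeing the data, they were 13 and 24. In every fit that left out 1 sample 63 genes were called, 19 higher and 44 lower. With S2 batches 1 and 2 only, the response was higher in Kc cells for 200 genes and lower for 178, against 304 and 298. Fewer samples were used in these fits, and causes of the other differences were not tested. The shallowest library had 2513223 reads on genes.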

Other observations

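Some groups of genes outside the comparisons above also had called members. Of 29 vacuolar ATPase genes in the files 16 were tested and 2 fell, and of 12 neprilysin-like peptidase genes tested 2 fell, both lists having been written after the calls were seen. Of 7 subunits of the CCT chaperonin, a list of the same kind, 1 fell, 6 were lower at an unadjusted p below 0.05 and all 7 had log2 fold-changes below 0, with a median of -0.20. Of 16 genes of insulin and TOR signalling none was called by edgeR or DESeq2, with 1 higher at an unadjusted p below 0.05. Of 154 antisense RNAs edgeR called none and DESeq2 2 lower, with 14 higher and 11 lower at an unadjusted p below 0.05.

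With no filter on low counts, a fit in which the spread of every gene was set to the trend, 71 genes of few reads were called that had no read in at least 1 sample, 68 higher and 3 lower. Together they had 341 reads per 1000000 in *jil-1* RNAi replicate 1, between 15.1 and 26.6 in the other *jil-1* RNAi samples and between 8.99 and 19.2 in controls, and 60 of the 71 were highest in replicate 1.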
